A study of Mus musculus with 10 samples.

Results

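The 6 terminal B cell differentiation regulators Prdm1, Xbp1, Bcl6, Bhlhe40, Bhlhe41 and Zbtb32 were examined in cells grown from the bone marrow of Hspa9+/- and Hspa9+/+ mice. They were chosen as the probe sets whose single annotated symbol was one of these names, and all 6 of 6 were found, each with 1 probe set, among 19938 gene symbols on the array. All 6 also passed the filter on dim rows, which kept 14953 genes. Bone marrow of 5 Hspa9+/- mice (heterozygous) and 5 Hspa9+/+ littermates (wild type) was cultured separately in methylcellulose for 7 days, so that B cell precursors formed pre-B colonies (CFU-PreB). B220+ cells were sorted from the colonies, and the RNA of each mouse was amplified and hybridised to 1 array. Hspa9 encodes mortalin, a chaperone of the mitochondrial matrix. How the Hspa9 allele was disrupted, and the age and sex of the mice, are not given in the sources used here. The question put here is whether these regulators differ in pre-B colony cells that lack 1 copy of Hspa9.

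A B cell that meets antigen can enter the germinal centre or become a plasma cell, and these fates are held apart by repressors that act on each other. BCL6, a zinc finger repressor, maintains the germinal centre state and represses Prdm1. Blimp-1, the product of Prdm1, shuts off the B cell programme in favour of antibody secretion, and XBP1 builds up the secretory apparatus of the endoplasmic reticulum. BHLHE40 and BHLHE41 are related basic helix-loop-helix repressors that bind E-boxes, and BHLHE41 is required for normal B-1a cells in mice. ZBTB32 is a zinc finger repressor that can act with Blimp-1 on the MHC class II activator gene Ciita. In pre-B cells BCL6 is also known as a survival factor that is induced when IL-7 signalling ends.

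Values are RMA expression on the log2 scale, and each difference is the heterozygous mean minus the wild type mean, with limma's moderated standard error (SE). The number of arrays, 5 per genotype, limits the precision. In a mixed sample fewer cells of a type and less RNA per cell cannot be told apart. Hspa9 was at 9.18 ± 0.24 in heterozygous and 9.92 ± 0.38 in wild type arrays (SD, n = 5 each). The difference was -0.73 (SE 0.19, limma adjusted p = 0.345). The genotypes overlapped, as heterozygous 1 at 9.52 lay above wild type 1 at 9.49. B lineage markers had mean levels of 10.93 to 11.35 in heterozygous and 11.21 to 11.42 in wild type arrays, over 9 of the 10 listed genes. Monocyte and macrophage markers were present too, and 2 arrays stood apart in them. Over all 16 listed genes their mean was 6.86, 9.19, 6.74, 6.58 and 6.81 in heterozygous arrays 1 to 5, against 8.68, 7.20, 5.51, 5.37 and 5.47 in wild type arrays 1 to 5. Heterozygous 2 and wild type 1 were the highest, and the 3 lowest arrays were all wild type. Results are therefore also given without heterozygous 2 and wild type 1, which leaves 8 arrays. Those 8 arrays are not matched in myeloid signal. In them 8 of 16 macrophage and 5 of 12 neutrophil markers were higher in heterozygous cells at an unadjusted p under 0.05. Over all genes tested 1497 of 14953 were higher in the same 8 arrays. Over 10 arrays it was 0 of either list, against 1015 of all genes (6.79%). The median macrophage difference was 0.78, against 0.74 over 10 arrays.

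No gene passed the limma threshold of 0.05 after Benjamini-Hochberg adjustment (0 of 14953 genes, 0%), and none of the 6 regulators did. Before adjustment 1650 genes (11.0%) had a p under 0.05. Of the regulators, Bhlhe41 and Prdm1 were lower in heterozygous cells at that level, against 4.25% of all genes, and Xbp1 was higher, against 6.79% of all genes. Bcl6, Bhlhe40 and Zbtb32 did not reach it. Without heterozygous 2 and wild type 1 the count was again 1 higher, where 1497 of all 14953 genes were, and 2 lower, where 911 genes (6.09%) were. The median difference of the 6 was -0.11, against 0.058 over all genes tested. The regulators were picked with earlier results of these arrays known, so these counts are a description.

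**Figure D1:**
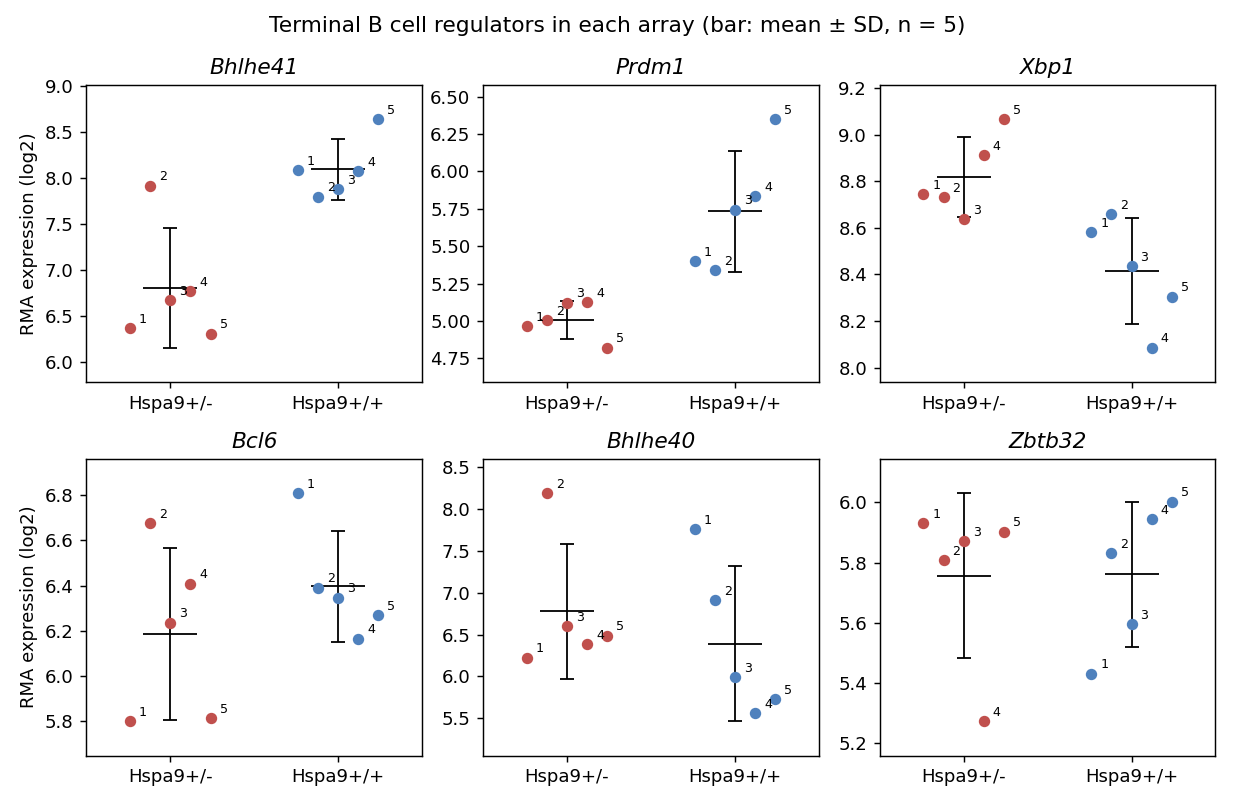
RMA expression (log2, vertical axes, each with its own range) of the 6 regulators in Hspa9+/- arrays (red, left) and Hspa9+/+ arrays (blue, right). Each point is 1 mouse with its replicate number, and bars are mean ± SD (n = 5). The genotypes do not overlap for Prdm1, and for Bhlhe41 only heterozygous 2, at 7.92, reaches the wild type range.

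Bhlhe41 showed the largest difference in means of the 6 regulators. It was at 6.37, 7.92, 6.67, 6.77 and 6.31 in heterozygous arrays 1 to 5, against 8.09, 7.80, 7.88, 8.07 and 8.64 in wild type arrays 1 to 5. Heterozygous 2 lay inside the wild type range and the other 4 heterozygous arrays lay more than 1 log2 unit below the lowest wild type array. The means were 6.81 ± 0.65 in heterozygous and 8.09 ± 0.33 in wild type arrays (SD, n = 5 each), and the difference was -1.29 (SE 0.29), or 40.9% of wild type expression with a 95% interval of 26.4 to 63.4%. The limma adjusted p was 0.297, and the two-sided exact permutation test of this gene alone gave p = 0.0238. Without heterozygous 2, the array highest in macrophage markers, the difference was -1.57 and the limma adjusted p was 0.0278, where 3 genes passed. It was also -1.57 without heterozygous 2 and wild type 1 (limma adjusted p = 0.0262), where 26 genes (0.174%) passed. With array weights it was -1.46 (limma adjusted p = 0.0255), where 137 of 14953 genes passed. The weights were lowest for wild type 1 (0.36) and heterozygous 2 (0.48), the same 2 arrays that were left out above. Adding the mean of the macrophage markers to the fit gave -1.41 (limma adjusted p = 0.109).

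Prdm1 was the 1 regulator whose genotypes did not overlap, which held for 2.28% of all genes. In its direction, lower in heterozygous cells, that was 0.809% of genes, and in the other direction, where no regulator stood apart, 1.47%. It was at 4.97, 5.00, 5.12, 5.12 and 4.82 in heterozygous arrays 1 to 5, against 5.40, 5.34, 5.74, 5.83 and 6.35 in wild type arrays 1 to 5. The heterozygous values were tightly grouped, with an SD of 0.13 against 0.40 in wild type. The difference of -0.73 (SE 0.18) corresponds to 60.5% of wild type expression (interval 46.2 to 79.1%), with a limma adjusted p of 0.345 and an exact permutation p of 0.00794, the smallest that 5 against 5 arrays allow. Every gene without overlap gives that permutation p, so it adds nothing to the lack of overlap. Prdm1 was dim, with an overall mean of 5.37 that is above the filter's cutoff of 4.52 and below the median row at 5.69. The 3 highest wild type arrays were the 3 with the least macrophage signal, and the difference was -0.62 with that marker mean as a covariate (limma adjusted p = 0.171). It was -0.50 with plasmacytoid dendritic cell markers as a covariate and -0.81 with array weights (limma adjusted p = 0.0370), where 137 genes passed.

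Xbp1 differed the other way. It was at 8.75, 8.73, 8.64, 8.91 and 9.07 in heterozygous arrays 1 to 5, against 8.58, 8.66, 8.44, 8.09 and 8.30 in wild type arrays 1 to 5. The groups met only where wild type 2 lay above heterozygous 3. The difference was 0.41 (SE 0.13), or 132% of wild type expression (interval 109 to 161%), with a limma adjusted p of 0.349 and an exact permutation p of 0.0159. XBP1 becomes an active factor after its mRNA is spliced by the stress sensor IRE1, and a gene-level probe set does not separate spliced from unspliced mRNA. Without heterozygous 2 and wild type 1 the difference was 0.47 (limma adjusted p = 0.221).

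Bcl6 overlapped between genotypes. It was at 5.80, 6.68, 6.24, 6.41 and 5.81 in heterozygous arrays 1 to 5, against 6.81, 6.39, 6.35, 6.16 and 6.27 in wild type arrays 1 to 5. Its highest array of each genotype was heterozygous 2 and wild type 1, the arrays highest in macrophage markers. The difference was -0.21 (95% interval -0.62 to 0.20, limma adjusted p = 0.636), an interval that spans 0. With macrophage markers as a covariate it was -0.35 and with plasmacytoid dendritic cell markers -0.52 (limma adjusted p of 0.295 and 0.352). It was -0.33 without heterozygous 2 and -0.11 without wild type 1.

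Bhlhe40, the close relative of Bhlhe41, was highest in the arrays highest in macrophage markers. It was at 6.22, 8.19, 6.60, 6.39 and 6.48 in heterozygous arrays 1 to 5, against 7.76, 6.91, 5.99, 5.56 and 5.73 in wild type arrays 1 to 5. The 5 wild type arrays stood in the same order as in the macrophage marker mean, and heterozygous 2 was at the top of both. Heterozygous 1, 3, 4 and 5 did not follow that order: heterozygous 1 had the highest marker mean of these 4 and the lowest Bhlhe40. The difference was 0.39 (95% interval -0.65 to 1.43, limma adjusted p = 0.726). It was 0.035 without heterozygous 2 and 0.73 without wild type 1. Fitted beside the mean of the macrophage markers the difference was -0.13 and its SE was 0.12, against an SE of 0.47 without it.

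Zbtb32 showed no difference that these arrays could resolve. It was at 5.93, 5.81, 5.87, 5.27 and 5.90 in heterozygous arrays 1 to 5, against 5.43, 5.83, 5.60, 5.94 and 6.002 in wild type arrays 1 to 5. The difference was -0.0041 (95% interval -0.35 to 0.34, limma adjusted p = 0.993), and its sign changed when single arrays were left out.

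**Figure D2:**
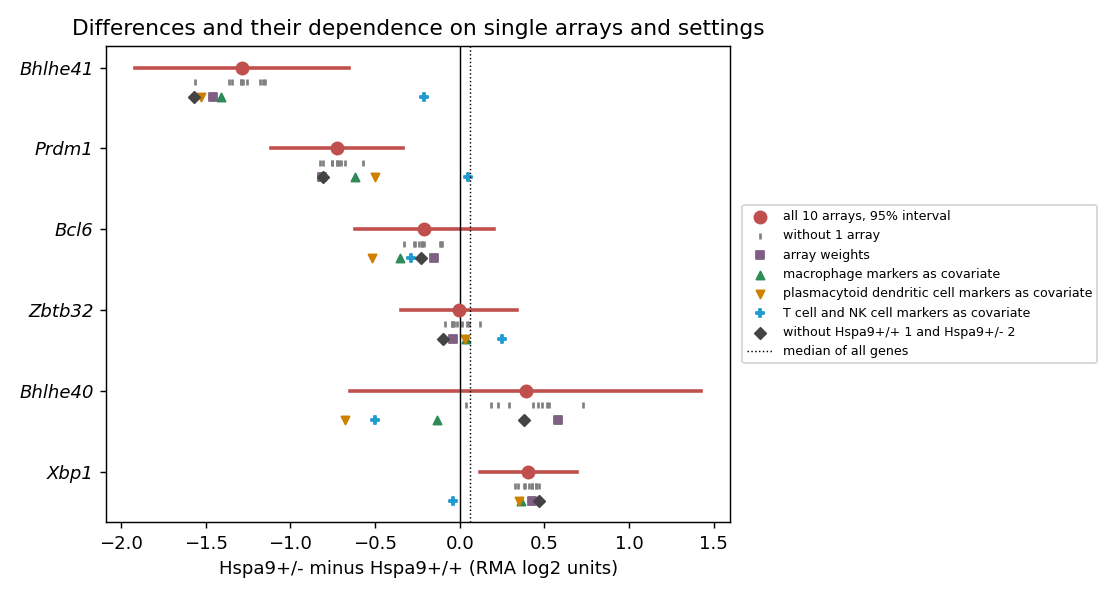
Difference between genotypes (Hspa9+/- minus Hspa9+/+, RMA log2 units, horizontal axis) for each regulator. Red points and lines are the estimate from 10 arrays with its 95% interval, grey ticks are fits without 1 array, and the other symbols are fits with array weights, with a marker mean as covariate or without Hspa9+/+ 1 and Hspa9+/- 2. Bhlhe41 stays between -1.57 and -1.15 without any 1 array, and Bhlhe40 changes sign with each of the 3 marker covariates. With T cell and NK cell markers as covariate Prdm1 and Xbp1 lie near 0 and Bhlhe41 is at -0.21.

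Markers of other cell types moved with these differences in part. Plasmacytoid dendritic cells carry B220 and their marker mean was 8.12 to 9.15 in heterozygous and 7.56 to 8.50 in wild type arrays. Of 8 measured genes of 9 listed, 4 were higher at an unadjusted p under 0.05 (6.79% of all genes). The other direction was held by 3, Tcf4 (-0.087), Ly6d (-0.12) and Spib (-0.30). Tcf4 and Ly6d were chosen after their values were seen, and Spib is also in the Blimp-1 list. With this marker mean as a covariate Bhlhe41 was at -1.53 and Xbp1 at 0.35. T cell and NK cell markers had means of 5.79 to 6.02 in heterozygous and 5.35 to 5.63 in wild type arrays, over the 6 of 10 listed genes that passed the filter. They separated the genotypes without overlap, so this covariate and genotype cannot be told apart well. With it, a setting added after seeing the data, Prdm1 was at 0.046 (SE 0.30), Xbp1 at -0.038 (SE 0.25) and Bhlhe41 at -0.21 (SE 0.54). Cd3d, Cd3g, Klrb1c and Gzma of that list lay below the cutoff. Of the 6 kept, 4 were higher at an unadjusted p under 0.05 (6.79% of all genes), and Cd4 at -0.055 went the other way. Wild type means were 8.29 for Thy1 and from 4.54 (Il2rb) to 5.18 (Cd8a) for the others, against the cutoff of 4.52. Cd4, Il2rb and Cd8a were chosen after their values were seen. Neutrophil marker means were 5.53 to 7.55 in heterozygous and 4.95 to 6.84 in wild type arrays, and erythroid means (5.02 to 5.25 in heterozygous and 4.78 to 5.22 in wild type) and megakaryocyte means (5.25 to 7.79 in heterozygous and 4.93 to 7.54 in wild type) overlapped too. The part of these cells in the differences was not tested beyond the covariate fits.

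**Figure D3:**
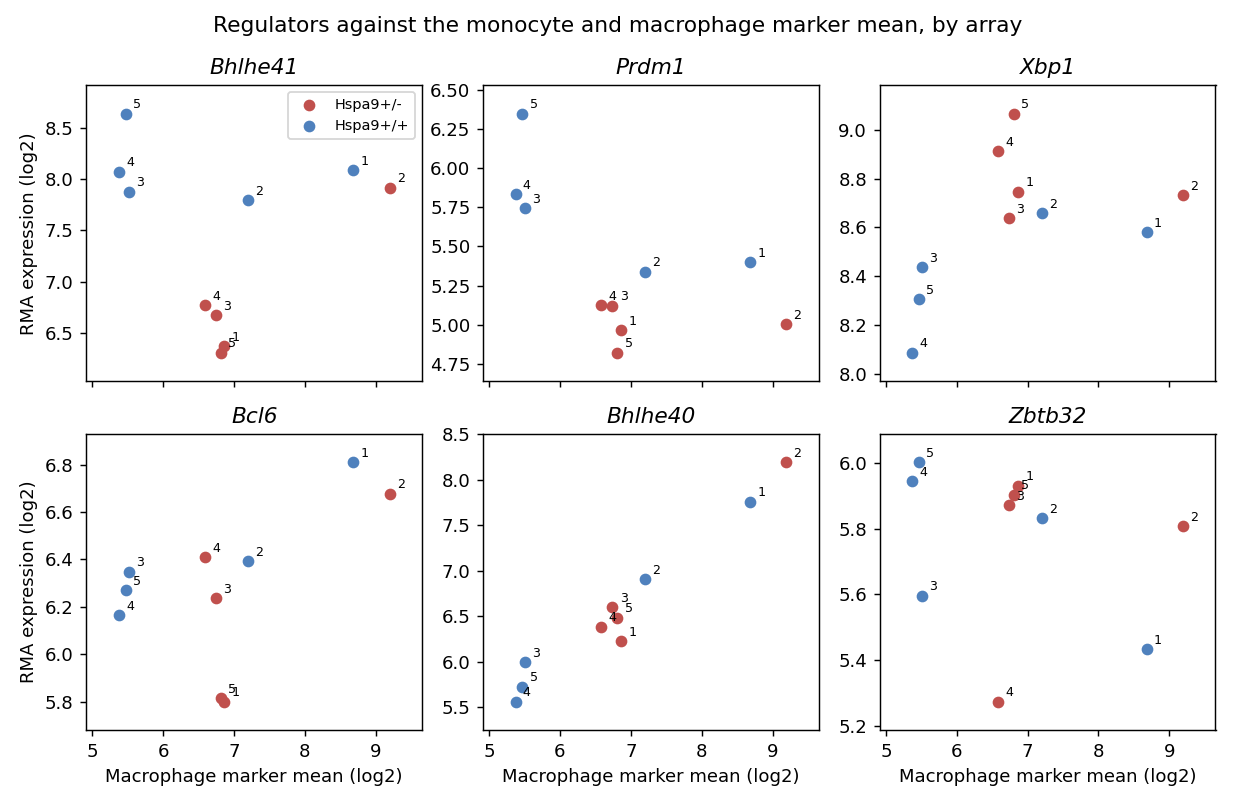
Expression of each regulator (RMA log2, vertical axes) against the mean of the 16 monocyte and macrophage markers (log2, horizontal axis) in Hspa9+/- (red) and Hspa9+/+ (blue) arrays, numbered by replicate. Bhlhe40 runs along the marker mean in wild type arrays and is highest in heterozygous 2, while heterozygous 1, 3, 4 and 5 show no such order, and Bhlhe41 in heterozygous 1, 3, 4 and 5 lies below all wild type arrays, among them wild type 2, which has a higher marker mean.

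The regulators varied together in some pairs. Over the 10 arrays Pearson's r between Prdm1 and Bhlhe41 was 0.81, and it was 0.44 after each genotype's mean was subtracted. Between Prdm1 and Xbp1 it was -0.85 and -0.63 after that subtraction, so arrays of 1 genotype with more Prdm1 also tended to have less Xbp1. Bcl6 and Bhlhe40 had an r of 0.65, which was 0.044 without heterozygous 2 and wild type 1. Bcl6 and Prdm1, the pair known for mutual repression, had an r of 0.19, which was -0.16 after that subtraction and 0.48 without heterozygous 2 and wild type 1. These coefficients are descriptions, and all genes share the arrays' content of other cells.

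The promoters are shown because BHLHE41 and BHLHE40 bind the E-box CACGTG and are known to act on genes of their own family. The 250 bases before a RefSeq start site (GRCm38.p6) were searched on both strands in 7 windows of the 5 regulators Prdm1, Xbp1, Bcl6, Bhlhe41 and Zbtb32. The promoter set used held no window of Bhlhe40, so its promoter was not searched. The E-box stands in 2 of the 7 windows, against 6.02% of 32851 promoter windows of the same length, 153 bases before the start of Bhlhe41 and 60 bases before the start of Bcl6. Capitals mark the E-box, and Prdm1 and Xbp1 are given for comparison as the other 2 regulators at an unadjusted p under 0.05. Each line reads 5′ to 3′ along the gene's strand, at chr6:145865421-145865670 (minus strand) for Bhlhe41, chr16:23988853-23989102 (minus) for Bcl6, chr10:44458749-44458998 (minus) for Prdm1 and chr11:5520391-5520640 (plus) for Xbp1.
Bhlhe41: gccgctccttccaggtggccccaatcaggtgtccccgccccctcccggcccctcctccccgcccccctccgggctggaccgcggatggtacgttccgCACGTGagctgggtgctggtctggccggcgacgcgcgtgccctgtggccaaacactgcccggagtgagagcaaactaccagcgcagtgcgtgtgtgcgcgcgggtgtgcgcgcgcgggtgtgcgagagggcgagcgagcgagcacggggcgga
Bcl6: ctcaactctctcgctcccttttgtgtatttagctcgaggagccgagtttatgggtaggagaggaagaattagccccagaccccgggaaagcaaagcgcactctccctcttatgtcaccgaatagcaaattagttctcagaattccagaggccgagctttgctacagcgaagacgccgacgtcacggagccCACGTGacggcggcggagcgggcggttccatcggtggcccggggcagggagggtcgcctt
Prdm1: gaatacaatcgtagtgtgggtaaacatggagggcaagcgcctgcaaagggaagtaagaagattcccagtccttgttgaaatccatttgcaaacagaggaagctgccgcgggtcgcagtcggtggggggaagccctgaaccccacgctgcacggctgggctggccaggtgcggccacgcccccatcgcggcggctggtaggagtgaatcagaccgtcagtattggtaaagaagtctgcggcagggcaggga
Xbp1: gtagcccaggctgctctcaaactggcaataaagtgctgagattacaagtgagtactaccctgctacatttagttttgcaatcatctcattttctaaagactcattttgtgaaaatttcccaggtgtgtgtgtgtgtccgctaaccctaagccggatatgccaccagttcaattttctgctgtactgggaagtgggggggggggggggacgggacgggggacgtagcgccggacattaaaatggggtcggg

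The core CCACG, which XBP1 and ATF6 can bind, stands in 3 of the 7 windows, against 28.3% of all promoter windows. Prdm1 has it 110 and 78 bases before the start, Bcl6 has it 61 bases before, where it overlaps the E-box, and Zbtb32 has it 196 bases before. TTCCNNGAA, a form of the palindrome that BCL6 and STAT factors recognise, stands in 1 window, the second one of Bcl6, 168 and 88 bases before the start (4.06% of all windows). TGACGTGG of the unfolded protein response element (0.563% of all windows) and GAAAGTG of the Blimp-1 site (4.01%) were in none of the 7. A match is a run of letters and not a measured binding site.

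Genes that XBP1 is known to induce did not move as one. Of 24 measured XBP1 target and endoplasmic reticulum secretory genes 0 passed adjustment, and at an unadjusted p under 0.05 4 were higher (6.79% of all genes) and 1 was lower (4.25% of all genes), with a median difference of 0.086. Sec61b, a subunit of the translocation channel, was at 11.55 to 11.72 in heterozygous and 11.16 to 11.55 in wild type arrays, a difference of 0.35 (SE 0.096). Sdf2l1 and Hyou1, chaperones of the endoplasmic reticulum, were at 0.51 and 0.48, and the channel subunit Sec61a1 at 0.30. These 3 were chosen after their values were seen, as was Atf6 below.

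Dnajb9, a cochaperone of the endoplasmic reticulum and a well known XBP1 target, differed the other way at -0.60 (SE 0.15, limma adjusted p = 0.345). It was at 7.18, 7.90, 7.29, 7.41 and 7.07 in heterozygous arrays 1 to 5, against 7.90, 7.75, 8.03, 8.07 and 8.08 in wild type arrays 1 to 5. As for Bhlhe41, heterozygous 2 was the one heterozygous array inside the wild type range, and without it and wild type 1 Dnajb9 was at -0.75 (limma adjusted p = 0.0525). Of the 5 sensors and transducers of endoplasmic reticulum stress 3 were lower at an unadjusted p under 0.05 (4.25% of all genes) and 0 passed adjustment. It was 2 of 5 without heterozygous 2 and wild type 1, where 911 of all genes (6.09%) were lower. The 3 were the sensor kinase Eif2ak3 at -0.31, the sensor Atf6 at -0.48 and the stress-induced transcription factor Ddit3 at -0.34. Ern1, which encodes IRE1, was at 0.46 and was likewise chosen after its values were seen.

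Genes that Blimp-1 is known to repress had a negative median and members on both sides of 0. Of 6 measured genes of 7 listed, 0 passed adjustment, 1 was lower at an unadjusted p under 0.05 (4.25% of all genes), and the median difference was -0.28. That gene was Ciita, the activator of MHC class II genes, at 5.98 to 6.44 in heterozygous and 5.93 to 7.21 in wild type arrays, a difference of -0.60 (SE 0.22). Its lowest array was wild type 1, and without that array and heterozygous 2 it was at -0.79 (limma adjusted p = 0.0730). The Ets factor Spib was at -0.30 and Pax5, which maintains B cell identity, at -0.47 (limma adjusted p of 0.463 and 0.605). The other direction was held by the chemokine receptor gene Cxcr5 at 0.38 and the growth regulator Myc at 0.34, both chosen after their values were seen. The list had 1 gene lower, Ciita, and 1 higher, Cxcr5 at 0.65 (limma unadjusted p = 0.0107), without heterozygous 2 and wild type 1. Over all 14953 genes 911 (6.09%) were lower there and 1497 higher.

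Factors that act with Blimp-1 in plasma cells were examined next. All 4 measured partner factors had negative differences (median -0.25), as did 5786 of 14953 genes, and Pou2af1 (-0.089) and Zbtb20 (-0.11), chosen after their values were seen, were near 0. At an unadjusted p under 0.05 1 was lower (4.25% of all genes), and 0 passed adjustment. That one was Ell2, an elongation factor that drives secretory immunoglobulin mRNA, at 6.75 to 7.53 in heterozygous and 7.49 to 8.75 in wild type arrays, a difference of -0.81 (SE 0.26). Irf4, which induces Prdm1, was at -0.39 (limma adjusted p = 0.511). Of 9 measured plasma cell markers 8 passed the filter, and of these 0 passed adjustment and 0 reached an unadjusted p under 0.05, with a median of 0.24. Sdc1, which encodes the plasma cell antigen CD138, was at 6.33 to 7.74 in heterozygous and 6.38 to 7.07 in wild type arrays, and Jchain, the antibody joining chain, lay below the cutoff at a mean of 4.21 in heterozygous and 4.33 in wild type arrays. The receptor Slamf7 was at -0.67 and Derl3 of the endoplasmic reticulum at 0.25.

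**Figure D4:**
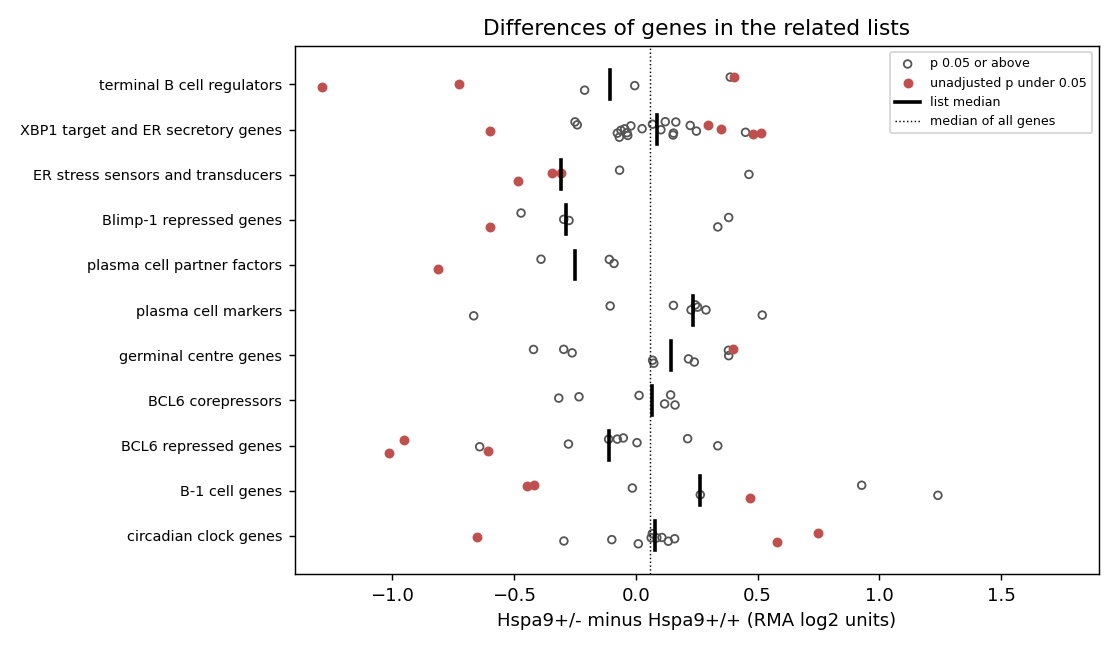
Differences between genotypes (Hspa9+/- minus Hspa9+/+, RMA log2 units, horizontal axis) of the genes in each related list, 1 point per gene, red at an unadjusted p under 0.05. Black bars are list medians and the dotted line is the median of all genes, 0.058. The BCL6 repressed genes hold the 2 points near -1 (Cd69 and S1pr1), and the list medians lie between -0.31 and 0.27.

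Genes that BCL6 is known to repress included the lowest values of any related list outside the regulators. Of 11 measured genes of 14 listed 0 passed adjustment, 3 were lower (4.25% of all genes) and 0 higher at an unadjusted p under 0.05. The genotypes did not overlap for those 3, as for 0.809% of all genes in that direction. The retention molecule Cd69 was at -1.01 (SE 0.19), the egress receptor S1pr1 at -0.95 (SE 0.15) and the cell cycle inhibitor Cdkn1b, chosen after its values were seen, at -0.60 (SE 0.15). The list median was -0.11. Without heterozygous 2 and wild type 1 Cd69 passed (-1.10, limma adjusted p = 0.0262), where 26 of all genes (0.174%) did. Of 6 measured BCL6 corepressors 0 reached an unadjusted p under 0.05 (Mta3 0.16, Tbl1xr1 -0.32), and of 12 measured germinal centre genes, 10 of which passed the filter, 1 was higher (6.79% of all genes), Irf8, a factor of both B and myeloid cells, at 0.40 (SE 0.18).

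Among genes tied to BHLHE41 and BHLHE40, those of B-1 cells went both ways. Of 8 measured genes 7 passed the filter, and of these 2 were lower (4.25% of all genes) and 1 was higher (6.79%) at an unadjusted p under 0.05, and 0 passed adjustment. Arid3a, a DNA-binding protein of fetal-type B cell development, was at 6.52 to 7.00 in heterozygous and 7.04 to 7.45 in wild type arrays, a difference of -0.45 (SE 0.13). The inhibitory receptor gene Ctla4 was at 0.47, near the cutoff with a wild type mean of 4.93. Without heterozygous 2 and wild type 1, 4 were higher, where 1497 of all 14953 genes were, and 2 lower, where 911 genes (6.09%) were. The 4 included Itgam at 0.99, which is also in the macrophage list, and Cd9 at 1.38, both chosen after their values were seen, in the same 8 arrays where macrophage markers were higher.

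Of 12 measured circadian clock genes, some of which both proteins can repress through E-boxes, 2 were higher (6.79% of all genes) and 1 lower (4.25%) at an unadjusted p under 0.05, 0 passed, and the median was 0.077. The clock repressor Nr1d1 was at 7.63 to 8.77 in heterozygous and 7.10 to 7.85 in wild type arrays, a difference of 0.75 (SE 0.23). The core activator Bmal1, named Arntl in the gene table used, was at 6.83 to 7.27 in heterozygous and 6.02 to 7.14 in wild type arrays, a difference of 0.58 (SE 0.19). For both genes heterozygous 2 was the lowest heterozygous array, and without it and wild type 1 they were at 0.99 and 0.80 (limma adjusted p = 0.0808 for both). The hours at which the colonies were collected are not given in the sources used here.

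The genes most like each regulator were taken as the 3 with the highest Pearson's r over the 10 arrays. Both genotypes were pooled for this choice, so a high r follows from it. For a regulator that differs between genotypes, a difference of the same sign follows in part too. For Bhlhe41 they were Dnajb9 (r = 0.97), the inhibitory Fc receptor gene Fcgr2b (0.97) and the cytokine gene Il18 (0.95), with differences of -0.60, -0.87 and -0.97. After each genotype's mean was subtracted, their r was 0.92, 0.92 and 0.85. Heterozygous 2 was the highest heterozygous array for all 3. Il18 was dim, with a heterozygous mean of 4.29 below the cutoff of 4.52 and a wild type mean of 5.25. For Prdm1 they were Mtx2 of the outer mitochondrial membrane (0.95), Plekhf2 (0.94) and Cep89 (0.94), with differences of -0.49, -0.50 and -0.26. For Xbp1 they were the cholesterol synthesis enzyme gene Dhcr7 (0.97), the immunoproteasome subunit gene Psmb8 (0.97) and the interferon-inducible Ifitm1 (0.96), all higher in heterozygous cells on average (0.60, 0.38 and 1.02). None of these 9 genes passed limma's adjustment.

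For Bcl6 the most alike genes were Srpr of the signal recognition particle receptor, Irgm1 and Tsg101, with r of 0.97, 0.97 and 0.93. For Bhlhe40 they were Slc25a24, Slc49a4 and the proton pump subunit gene Atp6v1b2, all at 0.99. Without heterozygous 2 and wild type 1 their r was 0.97, 0.96 and 0.98. For Zbtb32 the values were lower, at 0.89 for Dkk4, 0.87 for Raver2 and 0.87 for Sec16b, genes with means of 4.57 to 5.12, near the cutoff.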

How the data were processed

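RNA of B220+ cells from 10 mice was measured on 10 Mouse Gene 1.0 ST arrays. Per the labels, the authors computed RMA values per gene (log2) in Affymetrix Expression Console. Version, build and annotation of that step are not given in the sources used here, and RMA brings all arrays to a shared distribution, so a shift of most genes one way would be largely removed.

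Of 35556 probe sets 21789 had 1 symbol in the platform annotation, with 21698 of them matched by Entrez identifier to RefSeq GRCm38.p6. The probe set of highest mean was kept per symbol, and rows at or below the 25th percentile (4.52) were left out. The test was limma 3.58.1 (R 4.3.3), adjusted over all genes, and for single genes a two-sided exact permutation test (252 splits), not adjusted over the 6 regulators. The code was tested on simulated data.

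The regulators, lists and settings were chosen with earlier results of these data known. Named genes were the regulators, Hspa9, Ptprc, Sdc1, Jchain, Irf4 and Pax5, the 2 genes of smallest p per list and the 3 genes most like each regulator. Provisional, receptor segment and small RNA genes were not named. Ptprc, which encodes B220, was at -0.68 (limma adjusted p = 0.490). Its values were 9.61, 9.76, 9.37, 8.33 and 7.89 in heterozygous arrays 1 to 5, against 9.35 to 10.07 in wild type arrays. The 2 genes of smallest p in the marker lists were Igll1 (0.28) and Cd24a (-0.19) for B lineage, Lyz2 (1.45) and Marco (0.19) for macrophages, Mmp9 (0.24) and Ctsg (0.38) for neutrophils, Siglech (1.63) and Bst2 (0.72) for plasmacytoid dendritic cells, Nkg7 (0.68) and Thy1 (0.71) for T and NK cells, Slc4a1 (0.19) and Epor (0.19) for erythroid cells, and Gp9 (0.11) and Pf4 (1.05) for megakaryocytes. Alternatives were other filters, each probe set as a row, quantile and cyclic loess normalization, trended and robust variance, array weights, a replicate block, marker covariates and left-out arrays.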

Additional observations from a re-analysis of the deposited data

Results flagged for a closer look

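In 11 of 122 groups of 5 arrays, over 61 named genes, 1 array lay far from the other 4, where chance flags about 1 in 20 groups. Heterozygous 2 was that array in 9 of them. The groups are not independent, as some genes were chosen for likeness to a regulator, so the count does not test that rate. Among the regulators heterozygous 2 was high for Bhlhe40 at 8.19, with the other heterozygous arrays at 6.22 to 6.60, and for Bhlhe41 at 7.92, with the others at 6.31 to 6.77. Zbtb32 was low in heterozygous 4 at 5.27, with the others at 5.81 to 5.93. Heterozygous 2 was also high for Slc25a24 (5.94), Slc49a4 (8.27) and Atp6v1b2 (11.04), which were chosen for their likeness to Bhlhe40, and for the marker genes Lyz2 (12.87) and Pf4 (11.38). It was low for Arntl (6.83) and Nkg7 (5.24). Tsg101 was high in wild type 1 at 8.55, with the other wild type arrays at 8.26 to 8.34. Heterozygous 2 had the highest macrophage marker mean of the 10 arrays, and the part of that content in these values was not tested.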

How the results depend on the processing

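The count of 0 genes past the limma threshold was 137 with array weights, 1 with plasmacytoid dendritic cell markers as covariate and 26 without wild type 1 and heterozygous 2, and it ran from 0 to 22 without 1 array (22 without wild type 1, 3 without heterozygous 2). Bhlhe41 kept its direction in all 22 alternatives, though it was only at -0.21 (SE 0.54) with T cell and NK cell markers as covariate. It passed in 3, at -1.46 with array weights, -1.57 without heterozygous 2 and -1.57 without both arrays. All 3 left out heterozygous 2 or gave it a low weight (0.48). The other filters, each probe set as a row, trended and robust variance and the replicate block cannot change the direction of Bhlhe41. They return the same difference of -1.29. Without 1 array Bhlhe41 ran from -1.57 to -1.15. Prdm1 was at -0.81 with array weights, where it passed, ran from -0.82 to -0.57 without 1 array, and had no value with the filter at the median row, which it did not pass. Xbp1 ran from 0.32 to 0.47, Bcl6 from -0.33 to -0.11 and Bhlhe40 from 0.035 to 0.73 without 1 array. Signs reversed for Bhlhe40 with macrophage (-0.13), plasmacytoid dendritic cell (-0.68) and T cell and NK cell markers (-0.50) as covariate. They reversed for Zbtb32 with the same 3 covariates (0.039, 0.031 and 0.25), and Zbtb32 ran from -0.086 to 0.12 without 1 array. With T cell and NK cell markers as covariate, added after seeing the data, Prdm1 (0.046) and Xbp1 (-0.038) reversed too. The cause was not tested. The replicate block leaves each difference as it is by design, and 0 genes passed the threshold with it. The limma adjusted p was then 0.555 for each of Bhlhe41, Prdm1 and Xbp1. The deviations of arrays with the same number correlated at -0.53, 0.21, 0.53, 0.043 and 0.31 for numbers 1 to 5, so not every pair deviated together, and 0 of 10 arrays correlated best with the array of its own number.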
